A study of Mus musculus with 12 samples.

Results

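YAP target genes are genes whose transcription is raised by YAP and TAZ, the coactivators at the end of the Hippo kinase pathway. The 9 genes described here were chosen by symbol: Ccn1, Ccn2, Ankrd1, Amotl1, Amotl2, Ajuba, Axl, Crim1 and Ccdc80. All 9 were among the 54227 gene symbols of the normalised count table, and all 9 passed the minimum mean of 10 normalised counts that left 16128 genes for testing. When the Hippo kinases are active, YAP is held in the cytoplasm; when they are not, it enters the nucleus and binds DNA through TEAD factors, which recognise the MCAT element. In liver this pathway is known for its control of organ size and of biliary cell identity, and the same target genes are also used by endothelial and mesenchymal cells.

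The cells came from livers of C57Bl/6 mice that all carried the Sox9EGFP transgene, whose fluorescence reports on Sox9, a transcription factor of bile duct cells. The mice were fasted for 16 h, per the labels, and age and sex are not given in the sources used here. Single-cell suspensions of liver were divided by EGFP brightness with a cell sorter, giving 4 gates from dimmest to brightest: neg, sub (just below low), low and high. Each library was made from 12000 cells. There were 3 libraries per population. Reads assigned to genes, as recovered from the normalised counts, totalled 8775387 to 15535588 per library, and the sequencing depth itself is not given. The labels do not say that libraries of a population came from separate mice, so p-values refer to these libraries and not to mice. In limma, the spread of each gene between libraries was also drawn toward that of genes at a like mean level. Its SEs, intervals and p-values therefore do not measure the spread of a gene's own libraries alone. A population is defined by its fluorescence alone, and markers of other cell types were read in it, as given next.

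Sox9 itself was at 0.691, 0 and 0 normalised counts (reads divided by a size factor of the library) in neg. Its range was 3707 to 6653 for sub, 8838 to 17140 for low and 11793 to 13969 for high, so the means followed the gates while the low and high libraries overlapped. The summed level of 12 biliary markers ranged from 165.1 to 628.7 for neg, 23665 to 44472 for sub, 85791 to 106035 for low and 75966 to 80883 for high, and Epcam, Spp1, Cftr and Pkhd1 were at 0 in neg. The sum of 10 endothelial markers lay between 149104 and 206206 in neg, 42493 and 58282 in sub, 976 and 2900 in low, and 631.3 and 1520 in high. The sum of 12 stellate and mesenchymal markers lay between 24947 and 44387 in neg, 30889 and 42403 in sub, 1048 and 3061 in low, and 722.8 and 2797 in high; Lrat and Lum were at 0 in low, and Col3a1, Pdgfrb, Lrat and Acta2 in high. Of 10 macrophage markers 5 to 7 were at 0 in each population, and of 10 lymphocyte markers 6 to 9. The macrophage sum ranged from 0 to 575.5 for neg, 427.4 to 574.5 for sub, 814.0 to 1220 for low and 518.6 to 1526 for high. It was carried by different genes: Cd68 made up 93.3% of it in neg and 69.2% in sub, and Csf1r 91.7% in low and 78.7% in high, while the Cd68 mean was 198.5, 344.2, 24.2 and 79.6 from neg to high. Csf1r, the receptor for a macrophage growth factor, was the list member that passed: it held no read in neg and had means of 872.5 in low and 729.0 in high (adjusted p 0.0162 and 0.0189), while Adgre1 and C1qa were at 0 in both. The part of Csf1r-bearing cells in the levels of Ccn1 and Ankrd1 was not tested. The lymphocyte sum reached 1142 in a neg library and at most 142.5 outside neg. The sum of 5 mesothelial markers had means of 1072, 1352, 561.1 and 1011 from neg to high. In these bulk libraries, fewer cells of a type and less RNA per cell cannot be told apart.

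The start regions of these genes are shown first because several carry the MCAT letters that TEAD factors read. RefSeq promoter windows (build GRCm38.p6, 250 bases before to 50 bases after the annotated start) matched 7 of the 9 members: Ccn1, Ankrd1, Amotl1, Amotl2, Ajuba, Axl and Crim1. The letters GGAATG, or CATTCC on the other strand, occurred in 6 of these 7 windows, the exception being Amotl1, against 14.7% of all 32851 windows of this length. Ankrd1 and Ajuba held 2 matches each; 1.36% of all windows held 2 or more. The AP-1 letters TGANTCA, which read the same on both strands, were in 0 of the 7 windows and in 7.81% of all windows. A match describes letters and is not a binding site. The windows shown are those of Ccn1 and Ankrd1, whose levels were highest in the high gate, and of Amotl2 and Crim1, whose low and high libraries all lay below the neg libraries, so that both patterns can be read beside their start regions; capitals mark the MCAT letters on either strand.
Ccn1 (chr3:145649936-145650235, minus strand): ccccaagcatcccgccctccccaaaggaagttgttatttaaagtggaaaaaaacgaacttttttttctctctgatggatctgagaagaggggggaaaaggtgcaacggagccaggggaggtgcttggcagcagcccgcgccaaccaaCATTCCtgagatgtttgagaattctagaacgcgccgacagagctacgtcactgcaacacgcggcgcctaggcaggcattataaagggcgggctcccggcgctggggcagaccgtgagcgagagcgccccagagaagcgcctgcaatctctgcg
Ankrd1 (chr19:36119795-36120094, minus strand): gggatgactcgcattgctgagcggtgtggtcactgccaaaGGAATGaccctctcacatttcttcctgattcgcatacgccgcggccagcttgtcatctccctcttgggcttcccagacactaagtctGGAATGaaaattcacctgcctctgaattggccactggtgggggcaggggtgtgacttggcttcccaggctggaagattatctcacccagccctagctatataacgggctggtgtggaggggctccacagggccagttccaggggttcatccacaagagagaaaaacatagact
Amotl2 (chr9:102717554-102717853, plus strand): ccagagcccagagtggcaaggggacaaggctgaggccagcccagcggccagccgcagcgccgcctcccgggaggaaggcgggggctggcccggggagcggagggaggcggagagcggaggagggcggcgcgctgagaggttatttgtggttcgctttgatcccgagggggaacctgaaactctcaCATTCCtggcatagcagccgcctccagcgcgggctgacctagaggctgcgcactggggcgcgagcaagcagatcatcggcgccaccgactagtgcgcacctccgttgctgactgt
Crim1 (chr17:78199998-78200297, plus strand): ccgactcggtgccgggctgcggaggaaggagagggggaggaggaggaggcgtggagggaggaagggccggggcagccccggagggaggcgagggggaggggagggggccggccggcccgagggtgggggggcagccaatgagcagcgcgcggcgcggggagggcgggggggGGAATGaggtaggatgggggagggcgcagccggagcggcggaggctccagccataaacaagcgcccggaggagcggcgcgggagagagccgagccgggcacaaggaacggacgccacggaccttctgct

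The match began 103 bases before the start in Ccn1, 210 and 123 bases before it in Ankrd1, 65 bases before it in Amotl2 and 79 bases before it in Crim1. Genes highest in the high gate and genes lower in it thus both held the letters within this window. The RefSeq start lies 255 bases inside the GENCODE gene span for Ankrd1, whose whole window is therefore within the span, 1132 bases inside for Amotl2 and 30056 bases inside for Amotl1, the window without a match. It is the first base of the span for Crim1 and lies upstream of the span, by at most 103 bases, for Ccn1, Axl and Ajuba. The last 30 bases of the window were found in a GENCODE transcript of the gene for 5 of the 7, Ajuba and Axl being the exceptions.

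The highest means of the members lay in different gates, as they did over all tested genes, and nothing particular to the members is read from this spread. Ccn1 and Ankrd1 had their highest mean in high, Amotl1, Amotl2, Axl and Ccdc80 in neg, and Ccn2, Crim1 and Ajuba in sub; over all tested genes the shares were 22.9% for high, 30.4% for neg and 24.3% for sub. A moderated F test over the 4 populations passed for 6 of the 9 (Ccn1, Ankrd1, Ccdc80, Amotl2, Crim1 and Amotl1), where 4.23% of tested genes passed. With a minimum mean of 100, which all 9 reached, 752 genes passed from fewer tested genes, so that share was higher. The members were chosen with earlier results of these data known, so no enrichment is read from this count. The calls of Ccn1, Ankrd1 and Ccdc80 were kept in all 19 alternative analyses, with adjusted p of at most 0.00268, 9.44e-05 and 0.000121. Those of Amotl1, Amotl2 and Crim1 were kept in 6, 7 and 5 of the 19, and leaving out any single neg library ended each of these calls (adjusted p 0.208, 0.224 and 0.234 for Amotl1, 0.112, 0.181 and 0.196 for Amotl2, and 0.0866, 0.0633 and 0.0880 for Crim1, without neg 1, 2 and 3). Leaving out any single sub, low or high library also ended each call, with adjusted p up to 0.190, except that Amotl1 was kept without sub 1 (0.0361), Amotl2 without low 2 (0.0405) and Crim1 without high 2 (0.0458). With the replicate number as a block, the F test of Crim1 did not pass (0.0576). The F test did not pass for Ccn2 (adjusted p 0.1002), Axl (0.167) or Ajuba (0.992).

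**Figure D1:**
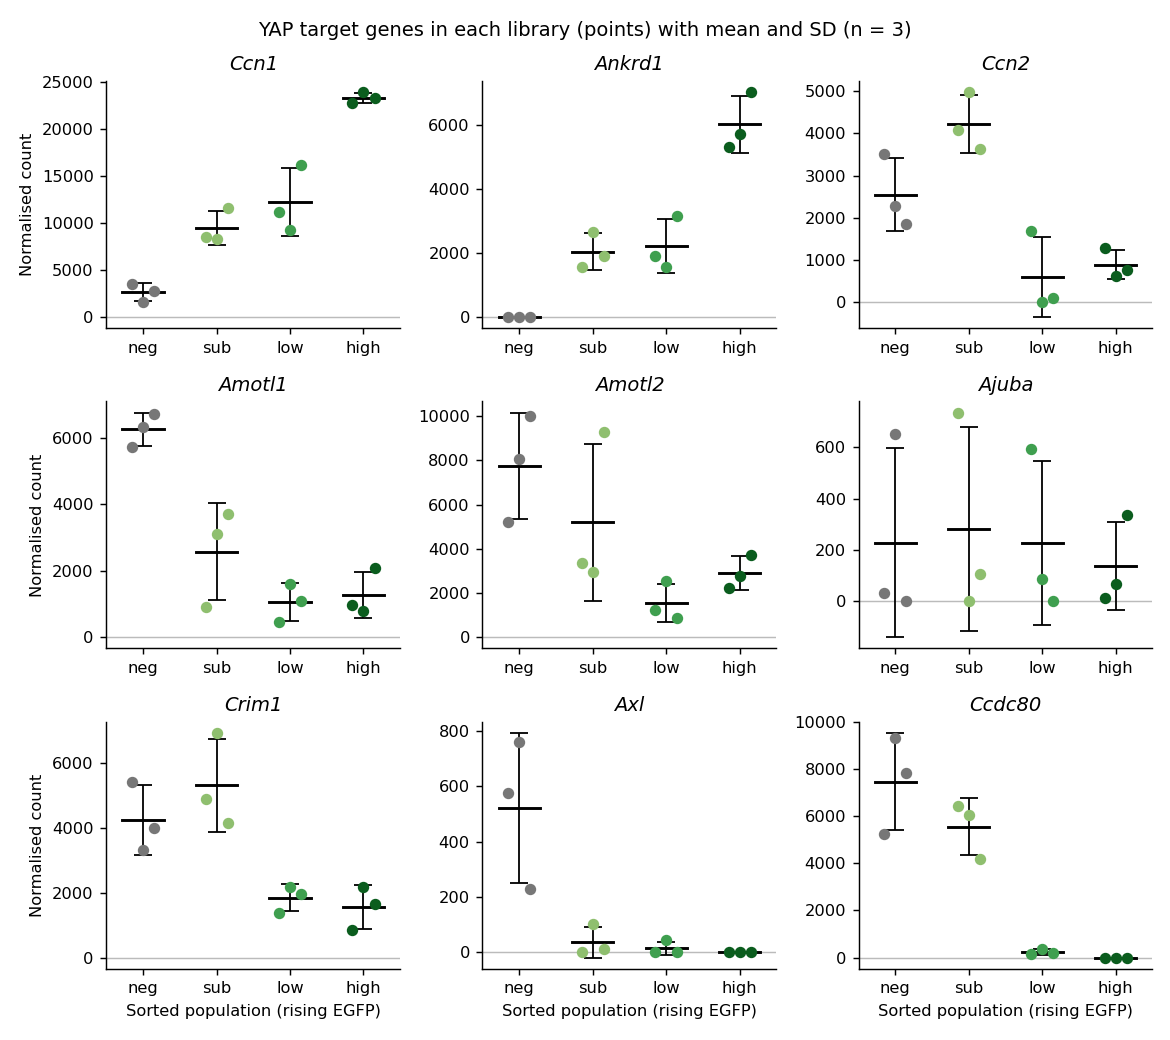
Normalised count (vertical axes, linear) of the 9 YAP target genes in the neg, sub, low and high populations; each point is a library, bars are means and whiskers SD (n = 3). Ccn1 and Ankrd1 have all 3 high libraries above the other 9, while Ccn2, Crim1 and Ccdc80 have all 6 low and high libraries below all 6 neg and sub libraries.

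All members are protein coding in the GENCODE annotation of GRCm38, from which the gene coordinates are taken. Ccn1 (chromosome 3, 145646976 to 145649981, minus strand) encodes a secreted matricellular protein of the CCN family that binds integrins, and is both a standard YAP readout and an early response gene. Its normalised counts were 3495, 1589 and 2750 in neg, 8453, 8307 and 11587 in sub, 11123, 9242 and 16216 in low, and 22781, 23924 and 23267 in high. The high libraries lay within a narrow band above every other library, the neg libraries lay below every other library, and sub and low overlapped. Ccn1 rose from neg by log2 fold changes of 1.91 ± 0.27 in sub (SE, adjusted p 0.000357 by limma), 2.26 ± 0.27 in low (2.43e-05) and 3.23 ± 0.27 in high (2.10e-07), and these calls were kept in all 19 alternatives.

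Among the sub, low and high gates, Ccn1 was 2.47 times higher in high than in sub (log2 fold change 1.32 ± 0.27, adjusted p 0.0243). That call was lost with no filter on low values (0.0890) and without neg 1 (0.0521), neg 3 (0.0870), sub 1 (0.139), sub 2 (0.176), sub 3 (0.0832), low 1 (0.0836), high 1 (0.153), high 2 (0.166) or high 3 (0.139), with log2 fold changes from 1.24 to 1.48. The mean was 1.91 times higher in high than in low, with no overlap between libraries; the log2 fold change of 0.98 (95% interval 0.41 to 1.54) had an adjusted p of 0.767, in a comparison where limma called 0 genes, 684 had an unadjusted p under 0.05, and edgeR called 34. Low and sub differed by 0.34 (95% interval -0.22 to 0.91, adjusted p 0.704). The cell type markers of sub and high also differed. The endothelial mean was 48859 in sub and 983 in high, and the stellate and mesenchymal mean 35643 and 1701. The part of these cells in the differences of Ccn1 and Ankrd1 between sub and high was not tested.

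Ankrd1 (chromosome 19, 36111961 to 36120099, minus strand) encodes an ankyrin repeat protein of the nucleus and the muscle sarcomere. It had 0 reads in all 3 neg libraries, 1548, 2664 and 1901 normalised counts in sub, 1901, 1548 and 3162 in low, and 5305, 5721 and 7026 in high. Every sub, low and high library thus held Ankrd1 and no neg library did, and the high libraries lay above the rest. Against a floor of 3 reads per library, Ankrd1 in sub was at least 707.7-fold higher than the neg floor (adjusted p 6.29e-06), in low at least 765.3-fold higher (3.19e-06) and in high at least 2090-fold higher (4.64e-07). These calls were kept in all 19 alternatives.

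Ankrd1 was 2.73 times higher in high than in low and 2.95 times higher than in sub, again with no overlap of libraries. The log2 fold changes of 1.51 (95% interval -0.84 to 3.85) and 1.59 (-0.76 to 3.93) had adjusted p of 1 and 0.685. Their SE of 1.12 draws on the spread of genes at a like mean level as well as on that of Ankrd1. Sub and low overlapped, with a log2 fold change of 0.082 (95% interval -2.26 to 2.43, adjusted p 1). Ccn1 and Ankrd1 were the members whose 3 high libraries all exceeded the other 9 libraries, a separation seen in 0.899% of tested genes.

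The means of the early response genes and of the hepatocyte markers had the same order over the populations as that of Ccn1. The sum of 10 immediate early genes lay between 85745 and 99190 in neg, 143651 and 174948 in sub, 208747 and 233414 in low, and 229947 and 247403 in high, and 6 of the 10 rose in high against neg (Fos, Fosb, Jun, Egr1, Atf3 and Ier2), where 2.44% of all tested genes rose. The sum of 10 hepatocyte markers lay between 395.0 and 1195 in neg, 6564 and 11502 in sub, 15980 and 23780 in low, and 20048 and 24967 in high; Hnf4a and Fgb were at 0 in neg, and Cps1 and Cyp2e1 in high. Their part in the levels of Ccn1 and Ankrd1 was not tested.

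Likeness of pattern was measured as Pearson r of log2(normalised count + 1) over the 12 libraries, which share the 4 gates, among 9613 other genes with a mean of at least 100. The genes most like Ccn1 were Atf3 (r = 0.954), a stress-induced transcription factor, Maff (0.951), a small Maf transcription factor, and Atp13a3 (0.949). Those most like Ankrd1 were Pkhd1 (0.996), the fibrocystin gene of bile duct cilia, Gm39041 (0.995), and Ahsg (0.994), a secreted hepatocyte glycoprotein; Pkhd1 and Ahsg were also at or near 0 in neg. Ankrd1 and Ccn1 had an r of 0.926 with each other. These values are descriptions over libraries that were not chosen independently of the gates.

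**Figure D2:**
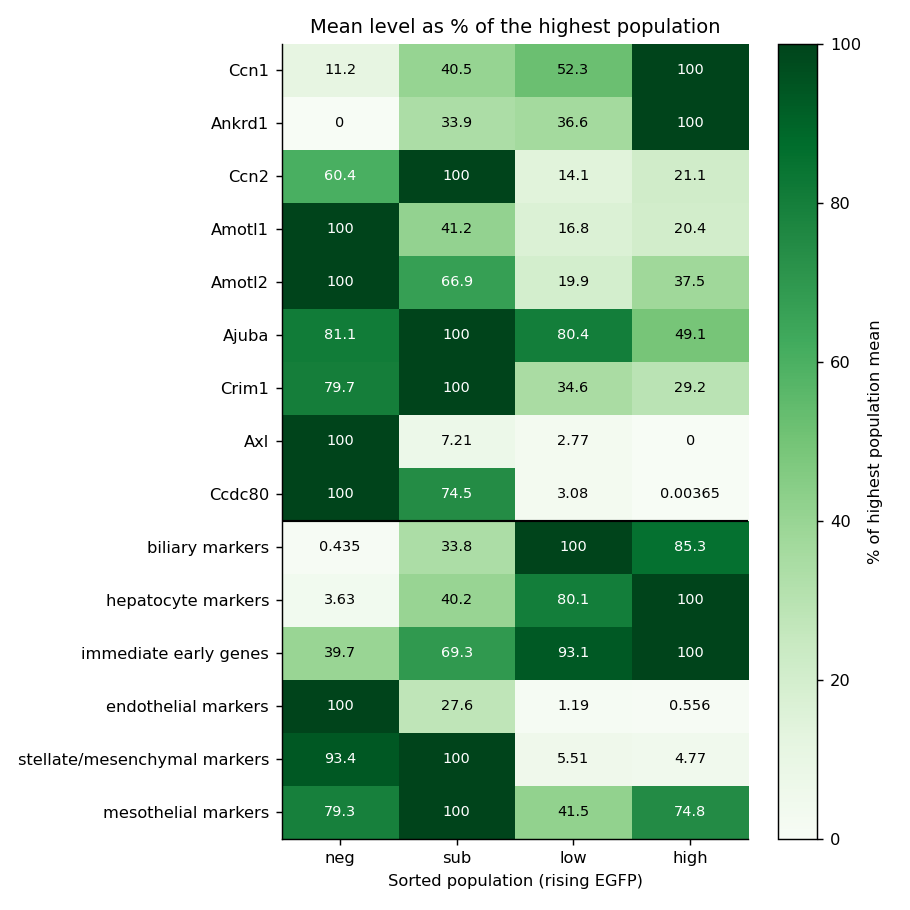
Population means of each YAP target gene (upper rows) and of summed marker lists (lower rows) as a percentage of the highest population mean of that row; columns are the populations in order of EGFP. In low the Ccdc80 row is at 3.08% and the stellate/mesenchymal row at 5.51%, while the Ccn1 row rises from 11.2% in neg to 100% in high.

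Ccn2 (chromosome 10, 24595442 to 24598683, plus strand), long known as connective tissue growth factor, is a paralog of Ccn1. Its normalised counts were 3522, 2278 and 1850 in neg, 4072, 4973 and 3627 in sub, 1679, 0 and 108.5 in low, and 1280, 631.7 and 766.1 in high. The sub libraries lay above all others and the 6 low and high libraries below all neg and sub libraries. The mean was 1.66 times higher in sub than in neg (log2 fold change 0.77, 95% interval -2.68 to 4.22, adjusted p 0.958). It was 7.09 times lower in low than in sub (adjusted p 0.0973) and 4.28 times lower in low than in neg (0.0674), and neither passed. The size of these changes rested on single low libraries. The log2 change of low minus sub was -6.20 with all libraries, -3.29 without low 2, the library at 0 (adjusted p 0.192), -8.65 without low 1, the highest low library (0.0280), and -2.67 with edgeR. That of low minus neg was -5.43, -2.52 (0.221), -7.88 (0.0202) and -1.92 in the same order. Without low 1 the low mean was 54.2, which is 77.9 times lower than sub and 47.0 times lower than neg; without low 2 these ratios were 4.72 and 2.85. A pseudocount of 5 also brought both contrasts past the threshold, and the replicate block brought low minus neg past it (0.0396). High and low overlapped, with means of 892.5 and 596.0; their log2 difference was 3.91 (adjusted p 1), against 0.99 without low 2, 6.35 without low 1 and 0.51 with edgeR, and it passed in none of the 19 alternatives. Gm15270, on the opposite strand of Ccn2, was at 0 throughout. The genes most like Ccn2 were Tent5a (r = 0.978), Slmapos2 (0.968) and Dennd5a (0.948).

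The difference between the relatives was taken as log2(Ccn1 + 1) minus log2(Ccn2 + 1) in each library. The test of it was chosen after these values had been seen, so its p describes them and is not independent support. The mean difference was 0.014 ± 0.55 for neg, 1.16 ± 0.48 for sub, 7.70 ± 5.24 for low and 4.77 ± 0.56 for high (SD, n = 3). Low 2, where Ccn2 held no read, raised the low mean: its difference of 13.2 depends on the pseudocount, and the lowest low library was at 2.73. The means therefore do not order low and high. The libraries of neg and sub lay below every low and high library. An exact permutation test over the 4 populations, two-sided in that it takes differences of any direction, gave p = 0.0172 and an adjusted p of 0.0344 over the 2 pairs of relatives compared. The call was kept without low 1 (adjusted p 0.00013) or low 2 (0.0155) and lost without neg 1 (0.0987), neg 2 (0.112), neg 3 (0.0868), sub 1 (0.0866), sub 2 (0.0874), sub 3 (0.0814), low 3 (0.0665), high 1 (0.104), high 2 (0.0897) or high 3 (0.0878). The same difference between Amotl1 and Amotl2 ranged from -1.88 to 0.36 over all libraries, with overlapping populations and a permutation p of 0.389 that does not show that the pair acted alike.

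**Figure D3:**
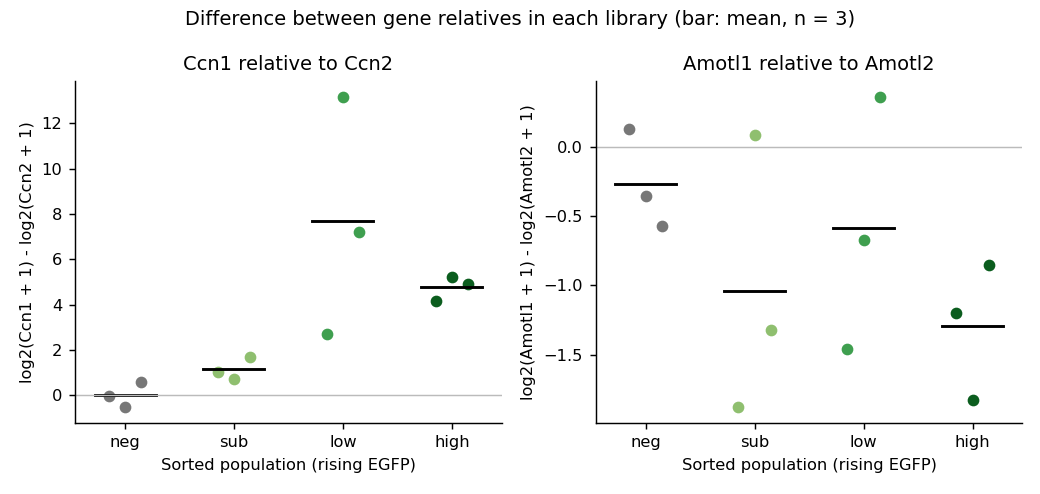
Difference in log2(normalised count + 1) between Ccn1 and Ccn2 (left) and between Amotl1 and Amotl2 (right) in each library; points are libraries, bars means (n = 3). All 6 low and high libraries of the left panel lie above the neg and sub libraries, from 2.73 to 13.2 against -0.52 to 1.68.

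Amotl1 and Amotl2 encode angiomotin-like scaffold proteins of cell junctions that bind YAP and restrain it, so they are targets that feed back on the pathway. Amotl1 (chromosome 9, 14541966 to 14645056, minus strand) was at 5715, 6317 and 6718 normalised counts in neg, 911.6, 3105 and 3712 in sub, 454.9, 1588 and 1101 in low, and 967.4, 783.3 and 2070 in high. The neg libraries stood above the other 9, which overlapped each other. Amotl1 was 5.96 times lower in low than in neg (log2 fold change -2.75 ± 0.65, adjusted p 0.0177) and 4.91 times lower in high (-2.42 ± 0.65, adjusted p 0.0372). The first call was lost without neg 1 (0.0782), neg 2 (0.0859), neg 3 (0.0901), low 1 (0.105), low 3 (0.0717) or high 1 (0.0518). The second was kept in 7 of 19 alternatives: it was lost with no filter (0.0723), with edgeR (0.0515) and without neg 1 (0.116), neg 2 (0.128), neg 3 (0.138), sub 2 (0.0644), sub 3 (0.0598), low 2 (0.0513), low 3 (0.0722), high 1 (0.167), high 2 (0.181) or high 3 (0.0561). Within its span lie 4930584E12Rik on the same strand and Gm34263 on the other; the first reached 269.8 in a high library and was at 0 in the other populations, and the second was at 0 throughout.

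Amotl2 (chromosome 9, 102716672 to 102733418, plus strand) was at 5220, 8062 and 9999 in neg, 3358, 2931 and 9287 in sub, 1251, 2527 and 855.6 in low, and 2220, 2781 and 3734 in high. Neg and sub overlapped through the third sub library, and low lay below both. Amotl2 fell in low against neg, 5.03 times lower (log2 fold change -2.43 ± 0.50, adjusted p 0.00667), a call lost without neg 2 (0.0675), neg 3 (0.0804), low 1 (0.0715) or low 3 (0.0791). High was 2.67 times lower than neg without overlap (-1.40, 95% interval -2.44 to -0.35, adjusted p 0.132). The low mean was 1544 and the high mean 2912; this difference (1.03, 95% interval -0.014 to 2.07, adjusted p 1) did not pass, and the libraries overlapped.

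The scaffolds and the stromal marker lists were set side by side over the gates, and the differences between their ratios were not tested. The mean in sub was 0.412 times that in neg for Amotl1 and 0.669 times for Amotl2 (0.405 without sub 3), against 0.276 for the endothelial and 1.07 for the stellate and mesenchymal sum. In low the means stood at 0.168 and 0.199 times neg, against 0.0119 for the endothelial and 0.0590 for the stellate and mesenchymal sum. Both scaffolds thus stood in low and high at 16.8% to 37.5% of their neg mean, where the endothelial sum was at 0.556% to 1.19%. Jak1 (r = 0.928), Ramp2 (0.925), a receptor-modifying protein of endothelial cells, and Polg2 (0.912) were most like Amotl1. Gm19000 (0.884), Ccdc9 (0.868) and Tgtp2 (0.863), an interferon-inducible GTPase, were most like Amotl2.

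Crim1 (chromosome 17, 78200248 to 78376592, plus strand) encodes a membrane protein with cysteine-rich repeats that binds BMP growth factors. It was at 5414, 3306 and 3998 normalised counts in neg, 4875, 6921 and 4153 in sub, 1380, 2185 and 1959 in low, and 836.8, 2172 and 1656 in high. Neg and sub overlapped, low and high overlapped, and the low and high libraries all lay below the neg and sub libraries. None of the pairwise contrasts passed: high minus sub was -1.85 (95% interval -2.83 to -0.86, adjusted p 0.0723), high minus neg -1.52 (-2.51 to -0.54, 0.0734), low minus sub -1.52 (-2.51 to -0.54, 0.171) and low minus neg -1.20 (-2.18 to -0.21, 0.191). The first 2 passed when only genes with a mean of at least 100 were tested (0.0481 and 0.0465). Fez2 overlaps Crim1 on the opposite strand and had means of 624.9, 276.7, 133.5 and 43.5 in neg, sub, low and high, and the use of strand in counting is not given in the sources used here, so reads of the 2 genes could not be told apart with certainty where they overlap. Gm25069, also within Crim1, was at 0. Podn (r = 0.947), a small leucine-rich proteoglycan, Smc1a (0.931), a cohesin subunit, and Slco2a1 (0.916), a prostaglandin transporter, were most like Crim1.

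Ccdc80 (chromosome 16, 45093402 to 45128077, plus strand) encodes a secreted extracellular matrix protein. It was at 5236, 9320 and 7842 normalised counts in neg, 6438, 6052 and 4203 in sub, 130.6, 381.5 and 178.3 in low, and 0, 0 and 0.817 in high, the last a single read. Neg and sub overlapped, low lay below both, and high was at or near 0 without overlap with low. Ccdc80 fell in low against neg (log2 fold change -5.12 ± 1.25, adjusted p 0.0211), in high against neg (-12.54 ± 1.25, 2.13e-06) and in high against sub (-12.13 ± 1.25, 4.59e-05), and all 3 calls were kept in all 19 alternatives. The mean was 32.4 times lower in low than in neg. The single read in high against 23320 reads in neg gave a ratio of 23808 once scaled by the size factors, with an exact 95% counting interval of 4273 to 940394.

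Low minus sub (-4.72 ± 1.25) had an adjusted p of 0.0953 for Ccdc80 and passed in 13 of 19 alternatives, down to 2.93e-05 in edgeR. High minus low (-7.41 ± 1.25) had an adjusted p of 0.165 and passed in 8 of 19, with 2.48e-08 in edgeR. Beside Ccdc80 means of 230.2 in low and 0.272 in high, the stellate and mesenchymal mean was 1965 in low and 1701 in high, with overlapping libraries, and the endothelial mean was 2103 and 983. These sums were led by different genes, Rgs5 with 43.0% in low and Reln with 34.4% in high. Of the 12 stellate and mesenchymal markers, 6 had a lower mean in high than in low, 5 had a higher one, and Lrat was at 0 in both. Col3a1, Pdgfrb and Acta2 held reads in low and were at 0 in high, while Lum was at 0 in low and held reads in high. The mean of Ccdc80 in sub was 0.745 times that in neg and in low 0.0414 times that in sub, beside 1.07 and 0.0551 for the stellate and mesenchymal sum. The corresponding ratios were 1.66 and 0.141 for Ccn2 and 1.25 and 0.346 for Crim1; the part of the stromal markers in the levels of these genes was not tested. Cped1 (r = 0.977), whose mean was 201.3 in low and 0 in high, Ebf1 (0.969), a transcription factor of mesenchymal and B cells, and Pam (0.965), an enzyme that amidates peptides, were most like Ccdc80.

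Axl (chromosome 7, 25757273 to 25788705, minus strand) encodes a receptor tyrosine kinase for GAS6. It was at 576.2, 759.5 and 228.9 normalised counts in neg, 0, 101.9 and 10.97 in sub, 0, 43.3 and 0 in low, and 0 in all 3 high libraries. The neg libraries stood above the other 9, of which 6 held no read. Against the floor of 3 reads per library, Axl was at least 193.7-fold lower in high than in neg. This missed the threshold (adjusted p 0.0504) and passed in 6 of 19 alternatives, over which the adjusted p ranged from 0.0339 to 0.264. It was 13.9 times lower in sub than in neg (adjusted p 0.503) and 36.1 times lower in low (0.142), each ratio resting on a single library: without sub 2 the first was 95.1, and without low 2 no read was left in low. With a library left out, the log2 change ranged from -7.07 to -3.73 for sub minus neg and from -8.86 to -6.13 for low minus neg. The mean in sub was 0.0721 times that in neg, or 0.0105 times without sub 2, beside 0.276 for the endothelial sum and 1.07 for the stellate and mesenchymal sum; the difference between these shares was not tested. Pdzd2 (r = 0.956), Shroom2 (0.939) and Zfpm2 (0.935) were most like Axl.

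Ajuba (chromosome 14, 54567472 to 54577558, minus strand) encodes a LIM domain protein that binds the kinases LATS1 and LATS2. Its normalised counts were 31.1, 651.8 and 0 in neg, 734.8, 0 and 107.7 in sub, 591.5, 85.8 and 0 in low, and 11.2, 68.7 and 334.0 in high. Each population held a library at or near 0 beside a much higher one, and all overlapped. None of its 6 contrasts passed, with adjusted p from 0.924 to 1. The 95% interval of high minus neg ran from -5.24 to 7.76 on the log2 scale, so changes of either direction within it could not be told from no change. Rab11fip2 (r = 0.915), Vat1 (0.906) and Tyk2 (0.894) were most like Ajuba.

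**Figure D4:**
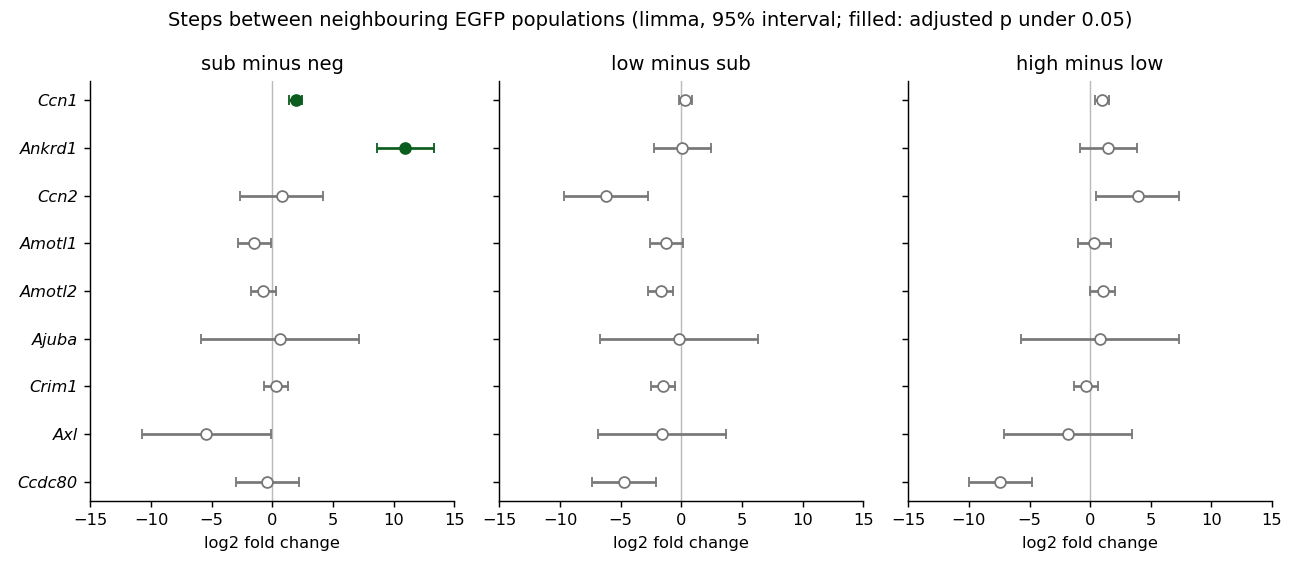
Log2 fold change (horizontal axes) of each YAP target gene between neighbouring populations, with 95% intervals from limma; filled points passed an adjusted p of 0.05. Only the sub minus neg values of Ccn1 (1.91) and Ankrd1 (10.96) are filled in the 3 panels.

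Counted over contrasts, 2 of 9 members passed in sub against neg, both higher, with 1.19% of all tested genes called there, 1.04% higher and 0.149% lower. For low against neg, 5 of 9 passed beside 4.69% of tested genes: 2 rose (Ccn1 and Ankrd1) and 3 fell (Amotl1, Amotl2 and Ccdc80), where 2.55% of tested genes rose and 2.15% fell. For high against neg, 4 of 9 passed beside 4.69%: Ccn1 and Ankrd1 rose and Amotl1 and Ccdc80 fell, where 2.44% rose and 2.25% fell; these contrasts share the neg libraries. With a minimum mean of 100, 872 genes passed for low against neg and 849 for high against neg. These came from fewer tested genes, so those shares were higher. For high against sub, 2 of 9 passed beside 0.986%: Ccn1 rose and Ccdc80 fell, where 0.118% rose and 0.868% fell. By limma 0 of 9 passed for low against sub, where 0.744% of genes did (0.130% higher and 0.614% lower), and 0 of 9 for high against low, where 0% did; at an unadjusted p under 0.05 these were 4 members beside 10.2% of tested genes and 3 beside 4.24%, and by edgeR 1 (Ccdc80) in each, beside 1.11% and 0.211%.

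Overlap of libraries gave a second description of the members, with no test. Between neg and sub, 5 of 9 members had no overlap beside 9.68% of tested genes: 3 were higher in sub (Ccn1, Ccn2 and Ankrd1) beside 4.69%, and 2 were lower (Amotl1 and Axl) beside 4.99%. All low libraries lay below all sub libraries for 4 members (Ccn2, Amotl2, Crim1 and Ccdc80) beside 5.99%, and above for 0 beside 5.75%, or 11.7% in both directions. Between low and high 3 members had no overlap beside 7.34%: Ccn1 and Ankrd1 were higher in high (4.06%) and Ccdc80 was lower (3.28%). Against neg, the same 8 members had no overlap in low (16.9% of tested genes) and in high (18.8%), Ajuba being the exception. Of these, Ccn1 and Ankrd1 were higher, beside 8.38% in low and 10.2% in high, and 6 were lower, beside 8.52% and 8.61%. Between sub and high 5 had no overlap (13.1%), with Ccn1 and Ankrd1 higher (7.2%) and Ccn2, Crim1 and Ccdc80 lower (5.91%). All low and high libraries lay below all neg and sub libraries for Ccn2, Crim1 and Ccdc80, as for 2.31% of tested genes, and the neg libraries lay above the other 9 for Amotl1 and Axl, as for 2.46%. For 7 members, all but Ccn1 and Ankrd1, the means of low and of high were below those of neg and of sub, as for 20.6% of tested genes.

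The order of levels between members was compared per kilobase of annotated exon. In neg, Ccdc80 was highest at 1739 normalised counts per kilobase, followed by Ccn1 (1293), Amotl2 (1234), Ccn2 (891.3), Crim1 (707.1) and Amotl1 (621.0), with Axl at 103.6, Ajuba at 62.4 and Ankrd1 at 0. In high, Ccn1 stood at 11552 and Ankrd1 at 2085, ahead of Amotl2 (463.0), Ccn2 (312.0), Crim1 (259.4), Amotl1 (126.5) and Ajuba (37.9). Ccn1 was 61.3% of the summed normalised counts of the 9 members in low and 64.6% in high, and 27.2% in sub. In neg the largest single share was that of Amotl2, at 24.5%. The 9 members summed to 31626 ± 2164 for neg, 34679 ± 4113 for sub, 19898 ± 3221 for low and 36113 ± 2726 for high (SD, n = 3).

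Of 15 other genes of the published YAP and TAZ signature, 14 passed the filter on low values. By limma 0 of the 14 passed in sub against neg (1.19% of all tested genes), where 3 had an unadjusted p under 0.05, and 1, Igfbp3, was lower in low against sub (0.744%) and in high against sub (0.986%). In low against neg 3 passed, Fjx1 higher and Asap1 and Igfbp3 lower, and in high against neg 2, Arhgef17 higher and Igfbp3 lower, beside 4.69% of tested genes in each. The median log2 fold change of the 14 was 1.07 in low against neg, where that of all tested genes was 0, and 0.55 in high against neg, where it was 0.13. Of the 14, 9 had a positive and 5 a negative value in low against neg, and 10 and 4 in high against neg. The sum of the 15 genes had means of 14497, 22437, 13654 and 13583 normalised counts from neg to high. Igfbp3, an IGF carrier, was at 1156 to 5107 in neg, 5875 to 10796 in sub, and at most 0.850 in any low or high library. Arhgef17 was at 0, 1.22 and 407.6 in neg and at 1626, 1048 and 1224 in high (adjusted p 0.0390).

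Among 17 genes of the Hippo kinase cascade, YAP, TAZ and the TEADs, all tested, 1 rose in sub and 1 in high against neg and 2 in low, and 0 fell. Of all tested genes, 1.04%, 2.44% and 2.55% rose in these contrasts and 0.149%, 2.25% and 2.15% fell, and no more is read from these counts. The gene that rose in all 3 was Wwc1, which encodes KIBRA, an upstream activator of the LATS kinases: no neg library held a read of it, and its means were 2305 ± 319, 4168 ± 607 and 4464 ± 1096 normalised counts in the sub, low and high populations (SD, n = 3), at least 1550-fold higher in high than in neg (adjusted p 3.47e-07). Mob1b, a LATS coactivator, also rose in low against neg (adjusted p 0.0461). Yap1 was at 2200 ± 566, 2288 ± 524, 1226 ± 1059 and 1383 ± 283 in neg, sub, low and high, and Wwtr1, the TAZ gene, at 1157 ± 526, 1276 ± 469, 1378 ± 865 and 1170 ± 206, and neither passed in any contrast. The median log2 fold change of the 17 against neg was 1.61 in sub, 0.64 in low and 1.13 in high, where that of all tested genes was 0, 0 and 0.13. In the contrasts without neg, the median of the 17 lay between -0.046 and 0.041.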

How the data were processed

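Total RNA of 12 libraries, each from 12000 sorted cells, was treated with DNase for 30 min and prepared with a stranded total RNA kit for small inputs, per the labels' protocols. The authors deposited a normalised count signal for each gene in each library; Salmon, DESeq2 1.26.0 and build mm10 are named in the submitters' processing notes, while the annotation and the strand setting are not given in the sources used here. Dividing each column by its smallest non-zero value (0.691 to 1.22) gave whole numbers for 100% of entries (tolerance 0.01 reads), so whole reads could be recovered as value divided by that step. For sub 3 and high 2 the step (0.997 and 1.01) is so close to 1 that entries of few reads cannot check this recovery. Large entries can: Ccn1 was at 11587.47 in sub 3 and 23924.31 in high 2, and division gave 11617 and 23672 reads. Both libraries entered edgeR as whole reads.

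Values were analysed as log2(normalised count + 1) with limma 3.58.1 in R 4.3.3 (lmFit, eBayes with a variance trend), on the 16128 genes with a mean of at least 10, with population as the only term and all 12 libraries. The 6 contrasts and a moderated F test were two-sided with Benjamini-Hochberg adjustment over all tested genes, at 0.05. Adjusted p-values are limma's except where edgeR or the permutation test is named. Log2 fold changes on this scale understate changes between low levels, but a library at 0 in a group of higher ones can enlarge or reverse them relative to the ratio of means. Ratios are of mean normalised counts, except that against a group with 1 to 3 reads the ratio is of summed reads scaled by size factors. A population whose libraries held no read was set at 3 reads per library for lower bounds. Floors and counting intervals cover counting error only, since no molecular identifiers are mentioned.

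The members and all gene lists were chosen with earlier results of these data known. The members were named in all contrasts, along with the 3 genes most like each, and list genes that passed. Marker lists (biliary, hepatocyte, endothelial, stellate/mesenchymal, mesothelial, macrophage, lymphocyte) and immediate early genes were summed per library.

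The analysis was repeated with pseudocounts of 0.5 and 5, without the low-value filter, with a minimum mean of 100, with equal library totals, with the replicate number as a block, with edgeR 4.0.16 (quasi-likelihood, TMM) on the recovered reads, and without each library in turn. The permutation test of relatives, its repeats and the ratios of means without each library were chosen after seeing the data. The fits were first tested on simulated data. Coordinates are from GENCODE M21 (GRCm38, the build also called mm10).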

Additional observations from a re-analysis of the deposited data

How the results depend on the processing

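Of 1026 values of the members' log2 fold changes (54 results under 19 alternatives), 936 kept their direction and side of the threshold, 32 lost a call, 34 gained 1 and 24 changed sign. None of the sign changes was in a called value. For Ajuba, edgeR gave -0.81 for high minus low, -0.58 for high minus neg and -1.02 for high minus sub, and a pseudocount of 5 gave -0.013 for the last. With each library left out in turn, Ajuba ranged from -1.75 to 3.36 (sub minus neg), -2.93 to 2.40 (low minus sub), -1.78 to 2.82 (high minus low), -1.96 to 3.04 (low minus neg), -1.14 to 3.54 (high minus neg) and -2.10 to 2.66 (high minus sub). Likewise Ankrd1 ranged from -0.21 to 0.30 (low minus sub), Amotl1 from -0.19 to 0.71 (high minus low), Axl from -3.42 to 0.033 (low minus sub) and Crim1 from -0.62 to 0.069 (high minus low). The cause was not tested.

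High minus low, with 0 genes called, gave 1 with no filter, 1 with the replicate block, 34 with edgeR, and 0 to 35 with a library left out. Leave-one-out counts ranged from 149 to 317 for sub minus neg (317 without neg 1), 42 to 170 for low minus sub (42 without sub 2), 465 to 737 for low minus neg (485 without low 2, 465 without low 3), 467 to 797 for high minus neg (467 without high 1, 485 without high 3), 74 to 245 for high minus sub (74 without sub 2, 245 without low 1) and 500 to 675 for the F test. With the replicate block, Ccn2 in low minus neg passed (adjusted p 0.0396) and the F test of Crim1 did not (0.0576), and no other call of a member changed; same-numbered libraries also share a suffix in the deposited column names, which the labels do not explain. Whether they came from 1 animal is not stated. Their deviations from the population means correlated at -0.0161 to 0.0266 in 18 pairs (median 0.0114), against a median of -0.00364 in the 36 pairs of other numbers. Of 12 libraries, 10 correlated best with their own number, although pairs of other numbers were more numerous. The correlations were small but leaned toward shared numbers, and a shared source was not tested. With the block, 180 genes passed for sub minus neg, 83 for low minus sub and 720 for low minus neg. Equal totals moved the median of all genes by at most -0.0412 on the log2 scale. Precision is limited by 3 libraries per population and by members near 0 reads.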

Other observations

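Among the other signature genes, a few patterns were picked out after their values were seen. Fjx1, the homolog of a fly kinase of the Golgi, had 0 reads in neg and was at 585.6, 1666 and 1182 normalised counts in low, but at 0, 109.2 and 0 in high and 0, 0 and 66.8 in sub. Low minus neg passed (adjusted p 0.0319) and high minus low did not (log2 fold change -7.77 ± 2.62, adjusted p 1). The low libraries lay above those of neg, as in 8.38% of tested genes, and above those of sub, as in 5.75%. They also lay above those of high, as in 3.28%, and the share for all of these together was not taken. F3, the tissue factor gene, was at 0, 1145 and 504.2 in neg, 1523, 1874 and 0 in sub, 1950 to 2576 in low and 1338 to 1645 in high; it lay below low in high without overlap, as did 3.28% of tested genes, and by limma it passed in 0 of the 6 contrasts, with 0 at an unadjusted p under 0.05. Ptpn14, a phosphatase that binds YAP, was at 2596 to 3099 in low and 2368 to 4305 in high, with 568.7 to 2076 in neg and 1777 to 2512 in sub. Low and neg did not overlap, as in 8.38% of tested genes in this direction, and by limma Ptpn14 passed in 0 of the 6 contrasts, with 2 at an unadjusted p under 0.05 (low and high against neg).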
